A study of Caenorhabditis elegans with 11 samples.

Results

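The 6 genes cpr-1, cpr-3, cpr-4, cpr-5, cpr-6 and cpl-1 encode papain-family cysteine proteases of the nematode Caenorhabditis elegans. They were taken by name from the table of read counts, which lists 45461 genes, and all 6 were found and passed the count minimum that 14773 genes passed. RNA-seq libraries from whole wild-type N2 (var. Bristol) worms were compared at 4 adult ages, counted in days after the L4 larval stage. All groups were kept on agar with 5 mM 2-deoxy-D-glucose (DOG), a glucose analogue that cannot be used in glycolysis, and were fed heat-inactivated E. coli. There were 3 libraries each at 1 day, 5 days and 10 days and 2 libraries at 20 days, each from a pool of worms that was cleared of offspring daily. Controls without DOG were not analysed here, so every comparison is one of age under DOG. The worms were moved to DOG after the L4 stage, so age and time on DOG rose together and cannot be told apart here. The labels do not say whether the replicates came from separate cultures, so the p-values measure the spread between these samples, which may be technical.

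Cysteine proteases of the papain family are made as inactive precursors, are cut to the active enzyme in acidic compartments, and break down proteins in lysosomes or, in the worm's gut, in the digestive lumen. The 5 cpr genes encode relatives of mammalian cathepsin B, and cpr-1 is known in C. elegans as a gut-specific protease gene. The product of cpr-4 is also known as a secreted protease. The gene cpl-1 encodes a cathepsin L and not a cathepsin B, is expressed in tissues beyond the intestine, and is needed for yolk processing in the embryo. The libraries hold RNA of the whole animal, so the tissue in which each transcript was made was not measured, and fewer cells of a type and less RNA per cell cannot be told apart.

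The depth was 23648292 to 58499127 counted reads per library. CPM is a gene's count scaled to a common library total, and RPKM, computed here, divides CPM by the summed exon length of the gene in kilobases. Changes between ages are log2 values from edgeR's quasi-likelihood test (TMM normalisation, all 4 ages in one fit), and a call means an adjusted p under 0.01 over all genes tested. Replicates varied with a biological coefficient of variation of 4.14%. The gene cpr-6 lies on chromosome X and the other 5 lie on chromosome V. Their summed exon lengths run from 1078 bases in cpr-1 to 1369 bases in cpr-3. In the annotation used for lengths, no other gene overlapped their exons, except for a piRNA gene antisense to cpr-4, 21ur-14330, which held 0 counts in every library.

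The 6 proteases all differed between ages, but not in a common direction. Transcripts of cpr-1 and cpr-4 were most abundant at 10 days and least abundant at 20 days. Those of cpr-6 were lower at each later age, those of cpl-1 were lower at 5 days and lower again at 20 days, those of cpr-5 were low at 5 days, high again at 10 days and lowest at 20 days, and those of cpr-3 were 2.96- to 3.44-fold higher at 5, 10 and 20 days than at 1 day. The test for any difference between ages called all 6, with adjusted p-values from 1.3e-18 for cpr-5 to 5.6e-12 for cpr-3. This test called 91.4% of all genes tested, so that a call in it does not set the proteases apart.

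**Figure D1:**
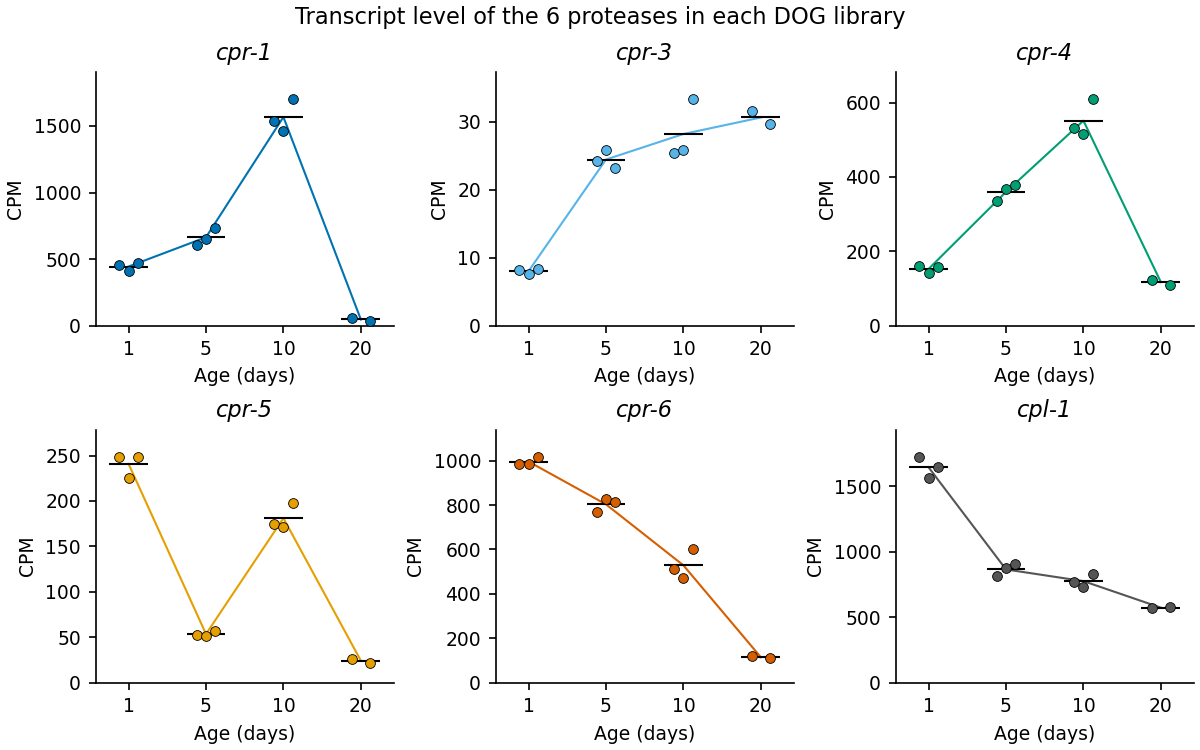
CPM of each protease (vertical axis, its own scale in each panel, starting at 0) against age in days. Each point is 1 library, short horizontal bars are the means of 3 libraries (2 at 20 days), and lines join the means. The panels show the peak of cpr-1 and cpr-4 at 10 days, the dip of cpr-5 to 53.6 CPM at 5 days and the lower levels of cpr-6 and cpl-1 with age.

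The gut protease gene cpr-1 had the widest range. It had 453, 411 and 467 CPM in 1-day worms, 604, 654 and 733 CPM in 5-day worms, 1541, 1461 and 1700 CPM in 10-day worms, and 55.5 and 36.2 CPM in 20-day worms. No 2 ages overlapped, and both 20-day libraries lay far under every other library. At 10 days cpr-1 was the gene with rank 40 by mean CPM among all genes tested, and at 20 days it had rank 4394. The log2 change was 0.54 (SE 0.10) at 5 days against 1 day and 1.23 (SE 0.10) at 10 days against 5 days, with adjusted p-values of 6.5e-05 and 4.2e-09. At 20 days against 10 days it was -5.20 (SE 0.14, adjusted p = 4.2e-16), a level 36.8-fold lower. Against 1 day, the level at 20 days was 10.8-fold lower (log2 change -3.43, SE 0.13, adjusted p = 1.0e-14).

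The gene for the secreted cathepsin B-like protease, cpr-4, followed the same order of ages with smaller steps. It had 160, 141 and 156 CPM at 1 day, 335, 366 and 378 CPM at 5 days, 531, 515 and 609 CPM at 10 days, and 124 and 110 CPM at 20 days. The groups did not overlap, and the 20-day libraries lay just under those of 1 day. The log2 changes were 1.20 (SE 0.06, adjusted p = 2.7e-12) at 5 days against 1 day, 0.61 (SE 0.06, adjusted p = 7.4e-08) at 10 days against 5 days and -2.34 (SE 0.07, adjusted p = 3.5e-15) at 20 days against 10 days. The level at 20 days was 5.06-fold lower than at 10 days. Between 20 days and 1 day the difference was small (log2 change -0.53, SE 0.07, adjusted p = 1.2e-06) and lay within the middle 50% of all genes tested, which ran from -0.79 to 0.70.

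The profile of cpr-5, another cathepsin B-like gene, crossed those of its relatives. The libraries held 248, 226 and 249 CPM at 1 day, 52.7, 51.5 and 56.7 CPM at 5 days, 175, 171 and 197 CPM at 10 days, and 26.7 and 22.1 CPM at 20 days. All 4 ages were separated, in the order 20, 5, 10 and 1 days. At 5 days cpr-5 was 4.61-fold lower than at 1 day (log2 change -2.20, SE 0.06, adjusted p = 2.2e-16), where cpr-1 and cpr-4 were higher. At 10 days it was 3.36-fold higher than at 5 days (log2 change 1.75, SE 0.06, adjusted p = 1.8e-14), but it stayed under the 1-day level by 0.46 on the log2 scale (log2 change -0.46, SE 0.05, adjusted p = 3.0e-07). At 20 days the level was 8.01-fold lower than at 10 days (adjusted p = 9.8e-17) and 11.0-fold lower than at 1 day (log2 change -3.46, SE 0.07, adjusted p = 2.1e-18).

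The cathepsin B-like gene cpr-6 was lower at every later age. It had 986, 983 and 1018 CPM at 1 day, 769, 825 and 814 CPM at 5 days, 513, 470 and 603 CPM at 10 days, and 118 and 112 CPM at 20 days. No groups overlapped, and the steps grew with age. The log2 change was -0.35 (SE 0.06, adjusted p = 5.8e-05) at 5 days against 1 day and -0.61 (SE 0.06, adjusted p = 1.3e-07) at 10 days against 5 days. It was -2.30 (SE 0.08, adjusted p = 9.0e-15) at 20 days against 10 days, a 4.93-fold lower level, and -3.26 (SE 0.08, adjusted p = 2.0e-17) at 20 days against 1 day, a 9.59-fold lower level.

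The cathepsin L gene cpl-1 was the most abundant of the 6 proteases per length at 1, 5 and 20 days. Its libraries held 1728, 1566 and 1645 CPM at 1 day, 814, 874 and 910 CPM at 5 days, 772, 730 and 828 CPM at 10 days, and 569 and 580 CPM at 20 days. The 1-day libraries stood apart from the rest, the 5-day and 10-day libraries overlapped, and the 20-day libraries were lowest. The first step was the largest, by -0.96 (SE 0.05, adjusted p = 2.5e-12) on the log2 scale at 5 days against 1 day. The step between 10 and 5 days was small, and its call depended on the choices made. Its log2 change of -0.16 (SE 0.05) had an adjusted p of 0.0080, just under the threshold, and the call was also made with DESeq2 (log2 change -0.16, adjusted p = 0.0039). The call was lost without replicate 2 of 5 days (log2 change -0.15, adjusted p = 0.039), replicate 3 of 5 days (-0.13, 0.048), replicate 1 of 10 days (-0.16, 0.032) or replicate 2 of 10 days (-0.12, 0.061), and kept without replicate 1 of 5 days, replicate 3 of 10 days or any 1-day library. It was also lost without either 20-day library, replicate 1 (adjusted p = 0.0107) or replicate 2 (adjusted p = 0.0106). The level at 20 days was lower than at 10 days by 0.54 on the log2 scale (log2 change -0.54, SE 0.06, adjusted p = 1.1e-07) and 3.18-fold lower than at 1 day (log2 change -1.67, SE 0.06, adjusted p = 3.0e-15).

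The cathepsin B-like gene cpr-3 was the least abundant at 1 day and the only one of the 6 with more transcript at 20 days than at 1 day. It had 8.12, 7.63 and 8.29 CPM in 1-day worms, 24.3, 25.8 and 23.2 CPM in 5-day worms, 25.4, 25.8 and 33.3 CPM in 10-day worms, and 31.6 and 29.6 CPM in 20-day worms. Every later library lay above every 1-day library, while the 10-day libraries overlapped those of both 5 and 20 days. These values rest on 192 to 1784 counts per library. The log2 change at 5 days against 1 day was 1.57 (SE 0.10, adjusted p = 4.5e-11). The later steps did not pass the test, with 0.21 (95% interval 0.03 to 0.38, adjusted p = 0.038) at 10 days against 5 days and 0.01 (95% interval -0.17 to 0.19, adjusted p = 0.93) at 20 days against 10 days. Without replicate 3 of 10 days, the change at 10 days against 5 days was 0.06 (adjusted p = 0.39). Against 1 day, the level at 20 days was 3.44-fold higher (log2 change 1.78, SE 0.10, adjusted p = 3.9e-12).

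The direction of the steps divided the proteases differently at each age. At 5 days against 1 day, 3 of the 6 were called higher (cpr-1, cpr-3 and cpr-4) and 3 lower (cpr-5, cpr-6 and cpl-1), where 34.5% and 34.0% of all genes tested were called higher and lower (68.4% in either direction). At 10 days against 5 days, 3 were called higher (cpr-1, cpr-4 and cpr-5) and 2 lower (cpr-6 and cpl-1), beside 23.7% and 24.6% of all genes (48.4% in either direction). The count of 2 falls to 1 when any one of the 6 libraries on which the call of cpl-1 rests is left out, replicates 2 and 3 of 5 days, 1 and 2 of 10 days and both of 20 days. At 20 days against 10 days, 0 were called higher and 5 lower, all but cpr-3, beside 28.3% and 28.2% of all genes (56.5% in either direction). Scaled to the library total instead of TMM, 5218 genes were called higher and 2977 lower in this comparison, against 4176 and 4173, and the protease counts were the same. The 0 from edgeR also holds at an unadjusted p under 0.05 and with DESeq2. Between 20 days and 1 day, cpr-3 was called higher and the other 5 lower, beside 38.5% and 38.0% of all genes (76.5% in either direction). At 10 days against 1 day, 3 were higher (cpr-1, cpr-3 and cpr-4) and 3 lower, beside 35.6% and 37.6% of all genes (73.2%). At 20 days against 5 days, 5 were lower and cpr-3 was not called (log2 change 0.21, adjusted p = 0.035), beside 35.3% of all genes higher and 33.0% lower (68.3%). The log2 changes of cpr-1, cpr-5 and cpr-6 between 20 days and 1 day ran from -3.46 to -3.26, while the median of all genes was -0.01. The values of the 2 ages did not overlap for 6 of 6 proteases at 5 days against 1 day (77.2% of all genes), 4 of 6 at 10 days against 5 days (62.8%), 5 of 6 at 20 days against 10 days (78.7%) and 6 of 6 at 20 days against 1 day (87.3%).

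**Figure D2:**
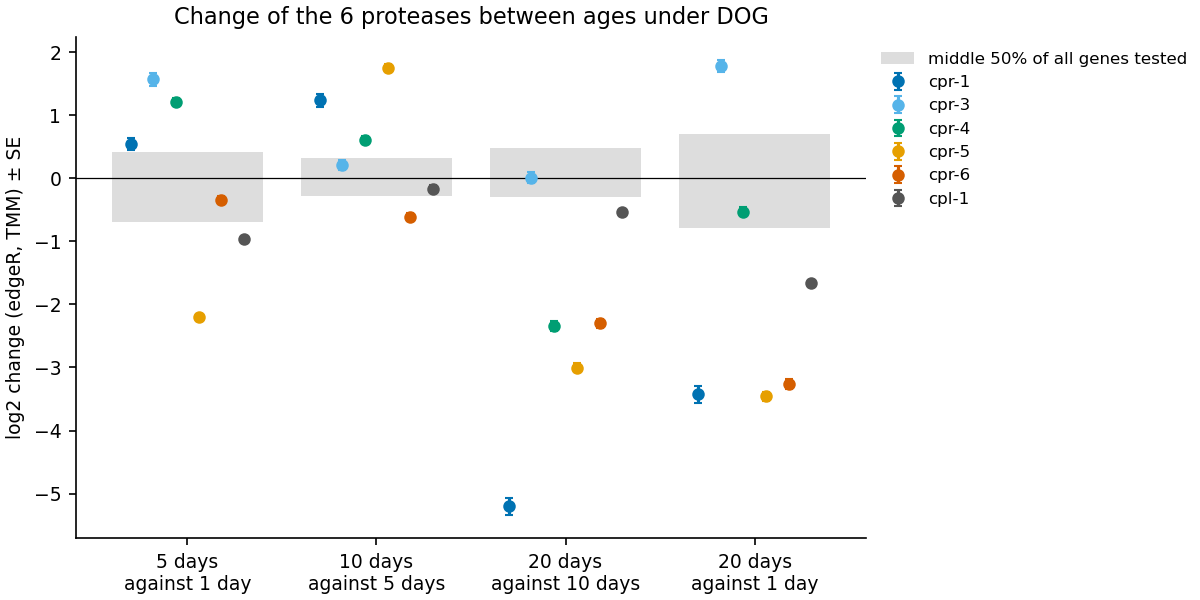
Log2 change from edgeR (vertical axis) of each protease in 4 comparisons of ages. Points are the estimates, bars their standard errors, and grey boxes hold the middle 50% of all genes tested. At 20 days against 10 days the 4 genes cpr-1, cpr-4, cpr-5 and cpr-6 lie between -5.20 and -2.30, under the grey box, while cpr-3 lies at 0.01.

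The third 10-day library had the highest CPM of its age in all 6 proteases. Without it, the counts of proteases called were unchanged in all 4 comparisons, with 3 higher and 2 lower at 10 days against 5 days and 0 higher and 5 lower at 20 days against 10 days. The change of cpr-3 at 10 days against 5 days, which was not called, was 0.06 without it and 0.21 with it. What sets this library above the other two was not tested.

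Levels of different genes were compared per length. In RPKM, cpl-1 was highest at 1 day, with 1383 ± 68.0, followed by cpr-6 with 790 ± 15.3, cpr-1 with 412 ± 26.8, cpr-5 with 200 ± 10.8, cpr-4 with 135 ± 8.92 and cpr-3 with 5.85 ± 0.250 (SD, n = 3). At 10 days cpr-1 stood first with an RPKM of 1454 ± 112.6, ahead of cpl-1 with 653 ± 41.6, cpr-4 with 488 ± 44.5, cpr-6 with 420 ± 53.8, cpr-5 with 150 ± 11.7 and cpr-3 with 20.6 ± 3.23 (SD, n = 3). At 20 days cpl-1 was first again with 483 ± 6.64, and cpr-4 with 104 ± 8.61, cpr-6 with 91.4 ± 3.75, cpr-1 with 42.5 ± 12.7, cpr-3 with 22.4 ± 1.02 and cpr-5 with 20.2 ± 2.71 lay far under it (SD, n = 2). The SD ranges of some neighbours in these orders overlapped, namely cpr-6 (637 ± 23.7) and cpr-1 (616 ± 60.2) at 5 days and cpr-4 and cpr-6 at 10 days. At 20 days those of cpr-3 and cpr-5 overlapped, and those of cpr-4 and cpr-6 just met. The leading protease transcript per length was thus cpr-1 at 10 days and cpl-1 at the other ages.

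As a share of all reads counted on genes, the 6 proteases together took 0.349% ± 0.0134 in 1-day worms, 0.277% ± 0.0160 in 5-day worms, 0.363% ± 0.0306 in 10-day worms (SD, n = 3 each) and 0.0907% ± 0.00249 in 20-day worms (SD, n = 2). The sum was similar at 1 and 10 days, but its parts were not. Of the reads on the 6 genes, cpl-1 held 47.2%, 31.3%, 21.4% and 63.3% at 1, 5, 10 and 20 days. The gene cpr-1 held 12.7%, 23.9%, 43.2% and 5.03% at the same ages. The share of cpr-6 was 28.6% at 1 day and 12.7% at 20 days, and that of cpr-3 was 0.230% at 1 day and 3.38% at 20 days.

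**Figure D3:**
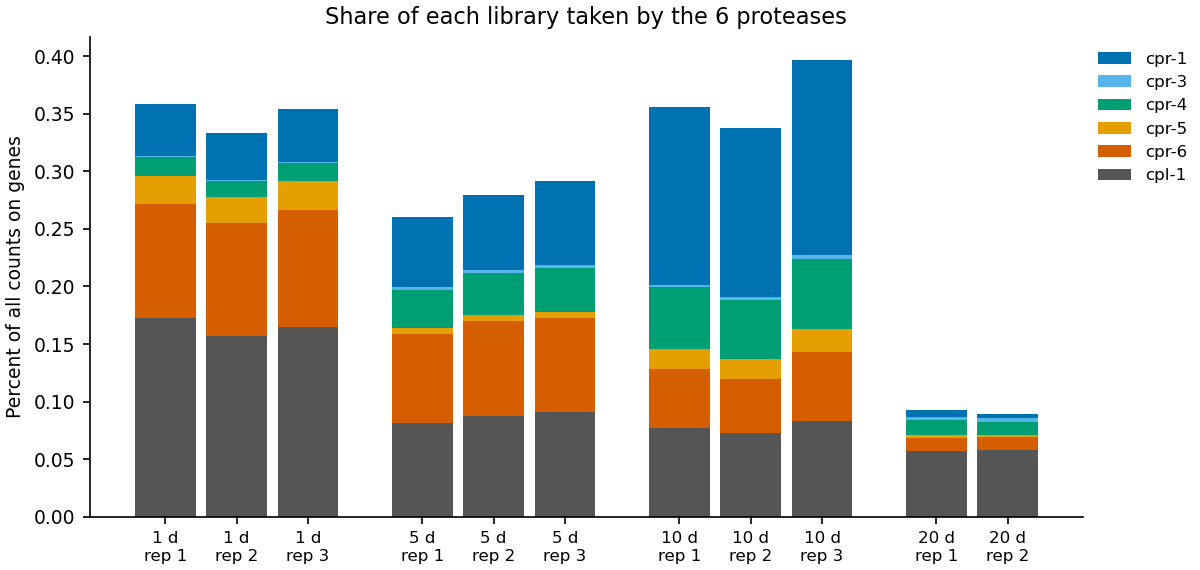
Percent of all reads counted on genes (vertical axis, from 0) that fell on the 6 proteases, with 1 stacked bar per library and 1 colour per gene, in order of age. The bars stand between 0.260% and 0.397% at 1, 5 and 10 days and at 0.0925% and 0.0890% at 20 days, and the cpr-1 part is widest at 10 days.

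Monotony was measured as the mean Spearman's rho of the level with age over all 54 choices of 1 library per age, where the study drew replicates at random, and genes were classed as rising or falling at 0.75. With a mean rho of 0.91, cpr-3 was rising, as were 27.1% of all genes tested. Falling were cpr-6 with -1.0, cpl-1 with -0.98 and cpr-5 with -0.80, as were 18.4% of all genes. The class of cpr-5 came from its lowest value at 20 days and highest at 1 day, in spite of the dip at 5 days. Both cpr-1 and cpr-4 had -0.20 and belonged to neither class.

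Over the 11 libraries, the profiles of cpr-1 and cpr-4 were the most alike of the 15 pairs, with a Pearson's r of 0.87 and a Spearman's rho of 1.0 of log2 CPM after TMM scaling. On that scale the libraries stood in one order for both genes, while in the unscaled CPM values given above replicates 1 and 3 of 1 day change places. Next came cpr-6 and cpl-1 with an r of 0.81, cpr-5 and cpl-1 with 0.76 and cpr-1 and cpr-6 with 0.76. The last of these pairs had a Spearman's rho of 0.0, so a high r did not always mean a like order of libraries. The profile of cpr-3 ran opposite to that of cpl-1, with an r of -0.92, and had an r of -0.03 with cpr-1. These values describe 4 ages, since libraries of one age are not independent points, and no p is given. All share the scaling to library size.

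Among the 8057 genes with at least 100 counts in every library, the profile most like that of cpr-3 was that of lgmn-1 (T28H10.3), the legumain gene, with an r of 0.994. It was followed by tts-1, a long non-coding RNA gene, with 0.991 and by kin-4, a protein kinase gene, with 0.991. Nearest to cpr-4 were kola-3 (0.989), the saposin-like gene spp-2 (0.989) and the fatty acid desaturase gene fat-3 (0.987). The genes most like cpr-6 were nspg-6 (0.999), Y7A5A.1 (0.999) and the aspartyl protease gene asp-13 (0.998), which averaged 279 CPM at 1 day and 2.29 CPM at 20 days. For cpl-1 they were dct-18 (0.996), F13H10.8 (0.995) and ucr-11 (0.995), a gene of mitochondrial complex III.

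Most like cpr-1 were T10B10.4 (0.979), C55B6.1 (0.976) and T12B3.3 (0.976), and most like cpr-5 were R53.4 (0.971), C11D2.7 (0.969) and ZK177.1 (0.967). In size these changes were smaller than those of the proteases. The gene T10B10.4 had means of 17.0, 17.8, 20.1 and 13.1 CPM at 1, 5, 10 and 20 days, and R53.4 had 556, 460, 564 and 463 CPM. The measure compares the shape of a profile and not its height, and tts-1, for example, moved more than cpr-3, with 14.4 CPM at 1 day and 913 CPM at 20 days.

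Cystatins are small proteins that block papain-family proteases by filling the active site. Both cystatin genes were called higher at 20 days than at 1 day, as were 38.5% of all genes tested, opposite to 5 of the 6 proteases. The gene cpi-1 had 82.7, 78.1 and 87.7 CPM at 1 day, 514, 527 and 547 CPM at 5 days, 703, 700 and 723 CPM at 10 days, and 1349 and 1324 CPM at 20 days. No ages overlapped, and every step was upward, with log2 changes of 2.63, 0.41 and 0.81 (largest adjusted p = 6.0e-08). The level at 20 days differed from that at 1 day by a log2 change of 3.86 (SE 0.05, adjusted p = 1.2e-21). The change of cpi-2 was smaller, with means of 144, 194, 199 and 236 CPM at 1, 5, 10 and 20 days and a log2 change of 0.57 at 20 days against 1 day (SE 0.05, adjusted p = 1.3e-09). Per length, cpi-1 transcripts stood to the sum of the 6 proteases in a ratio of 0.0509 ± 0.00190 in 1-day worms, 0.403 ± 0.0125 in 5-day worms, 0.401 ± 0.0260 in 10-day worms (SD, n = 3 each) and 3.15 ± 0.0504 in 20-day worms (SD, n = 2). The inhibitor's transcripts were thus outnumbered by those of the 6 proteases at 1, 5 and 10 days and outnumbered them at 20 days.

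Legumain is a cysteine protease of another family, which in mammals cuts cathepsin precursors. The gene lgmn-1 had 30.2, 28.4 and 31.4 CPM at 1 day, 149, 151 and 149 CPM at 5 days, 186, 179 and 215 CPM at 10 days, and 241 and 232 CPM at 20 days. Every later library lay above those of 1 day, and the log2 change at 20 days against 1 day was 2.83 (SE 0.06, adjusted p = 2.1e-18). As with cpr-3, the step at 5 days was by far the largest, at 2.28 (SE 0.06, adjusted p = 8.1e-17).

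**Figure D4:**
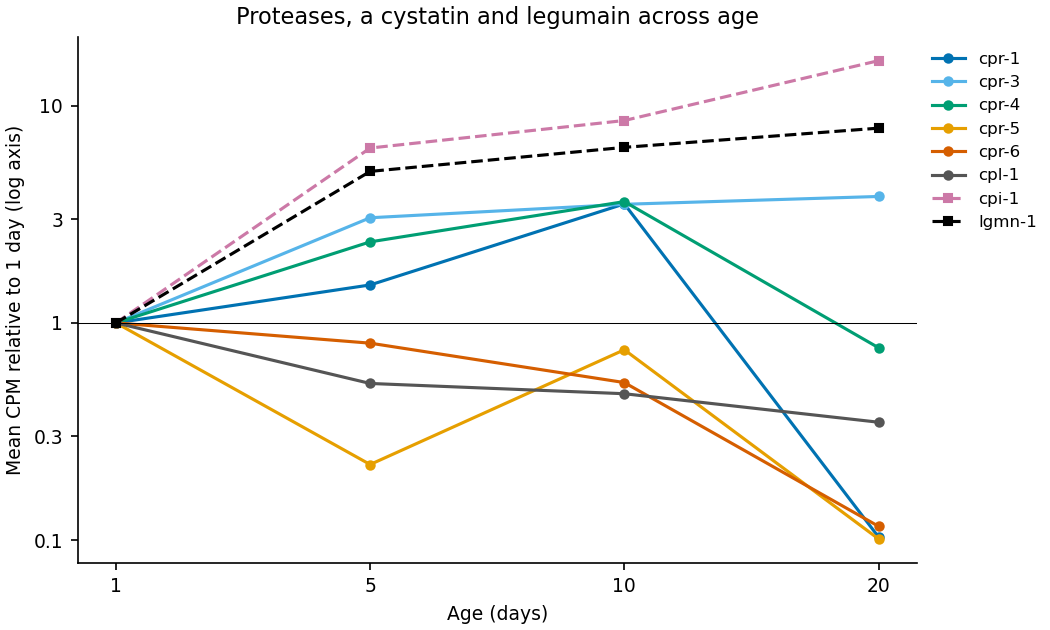
Mean CPM at each age divided by the mean at 1 day (log axis), for the 6 proteases (solid lines), the cystatin gene cpi-1 and the legumain gene lgmn-1 (dashed lines), against age in days. At 20 days cpi-1, lgmn-1 and cpr-3 lie above the line at 1 and the other 5 proteases lie below it.

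A list of other papain-family proteases held 21 genes of the table, of which 16 passed the count minimum. At 20 days against 1 day, 5 of the 16 were called higher and 9 lower, beside 38.5% and 38.0% of all genes. The median log2 change was -0.74 where the median of all genes was -0.01. At 5 days against 1 day the counts were 2 higher and 5 lower (34.5% and 34.0% of all genes). At 10 days against 5 days they were 3 and 3 (23.7% and 24.6%), and at 20 days against 10 days 3 and 9 (28.3% and 28.2%). The largest decrease in the list was in cpr-9 (F57F5.1), with means of 1269, 607, 514 and 47.9 CPM at 1, 5, 10 and 20 days and a log2 change of -4.88 (SE 0.13, adjusted p = 8.3e-17) at 20 days against 1 day. It was followed by Y40H7A.10 (log2 change -4.29, SE 0.12, adjusted p = 8.2e-17).

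The largest increases in that list were in low genes. The gene cpr-2 had 6 to 10 counts in each library at 1 and 5 days, 343 to 664 at 10 days, and 88 and 129 at 20 days. It thus appeared mainly at 10 days, with 8.76, 9.10 and 12.4 CPM at 10 days, against 0.217, 0.218 and 0.319 CPM at 5 days (log2 change 5.31, SE 0.24, adjusted p = 1.0e-12), and its log2 change at 20 days against 1 day was 2.95 (SE 0.34, adjusted p = 1.7e-07). That of Y113G7B.15 was 1.91 (SE 0.40, adjusted p = 0.00026), from means of 0.599 CPM at 20 days and 0.136 CPM at 1 day.

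Aspartyl proteases, which share the gut and the lysosome with the cathepsins, were lower throughout at 20 days. The 20-day level was called lower for 6 of the 6 genes asp-1 to asp-6, both against 10 days (median log2 change -3.53) and against 1 day (median -3.65). Of all genes tested, 28.2% were called lower against 10 days and 38.0% against 1 day. At 5 days against 1 day 3 were higher and 2 lower (34.5% and 34.0% of all genes). At 10 days against 5 days 2 were higher and 2 lower (23.7% and 24.6%). The largest changes at 20 days against 1 day were in asp-2 (log2 change -6.17, SE 0.09, adjusted p = 1.4e-20) and in asp-3, a gene known for its part in necrotic cell death (log2 change -4.59, SE 0.10, adjusted p = 4.6e-18).

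Genes for proteins of the lysosomal membrane did not share this course. Of 4 genes, 3 were called higher at 20 days than at 1 day, by log2 changes of 0.93 for ctns-1, the cystine transporter cystinosin, 0.36 for cup-5, the mucolipin channel, and 0.22 for scav-3. The gene that was not called was lmp-1, a lysosome-associated membrane protein gene, with a change of -0.02 (SE 0.04, adjusted p = 0.57). Among 6 genes for regulators of intestinal and lysosomal genes, 4 were called higher in the same comparison and 2 were not called. The share of all genes called higher was the same 38.5%. The log2 change was 1.74 (SE 0.06) for the zinc finger factor pqm-1 and 0.75 (SE 0.04) for hlh-30, the worm's TFEB. The 2 not called were the intestinal GATA factor genes elt-2 and elt-7, with changes of -0.12 (SE 0.08, adjusted p = 0.16) and 0.04 (SE 0.11, adjusted p = 0.74).

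**Figure D5:**
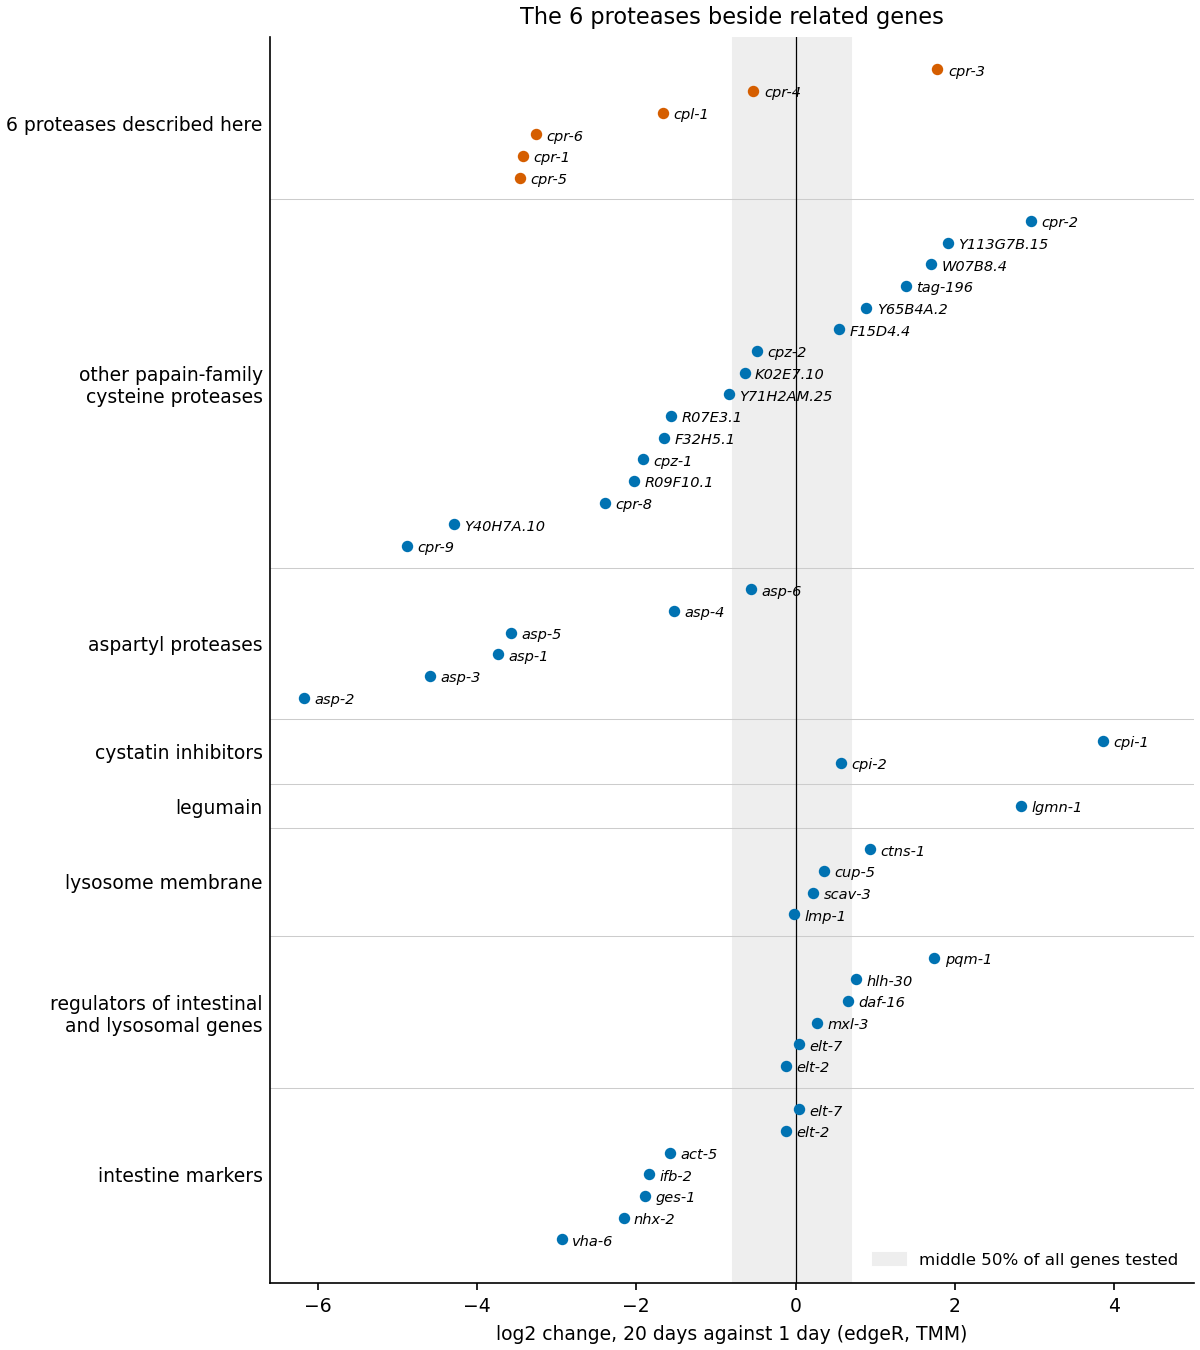
Log2 change at 20 days against 1 day (horizontal axis, edgeR) of the 6 proteases (orange) and of every tested gene of 7 related lists (blue), with the middle 50% of all genes tested in grey. Each point is 1 gene, and elt-2 and elt-7 belong to both of the lowest lists. The 6 aspartyl proteases lie between -6.17 and -0.56, and cpi-1 and lgmn-1 lie at 3.86 and 2.83.

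Markers of the intestine also moved with age, where 38.0% of all genes tested were called lower at 20 days against 1 day. Of 8 names fixed as markers, 7 were matched in the table, and at 20 days against 1 day 5 were called lower (vha-6, nhx-2, ges-1, ifb-2 and act-5) and elt-2 and elt-7 were not called, with a median log2 change of -1.84. Their summed level was 816 to 851 CPM at 1 day, 276 to 283 CPM at 5 days, 143 to 173 CPM at 10 days and 256 to 263 CPM at 20 days. The sum was thus lowest at 10 days, where cpr-1 and cpr-4 were highest. It leaned on act-5, with means of 462, 90.6, 38.8 and 173 CPM at 1, 5, 10 and 20 days. Of the single markers, act-5 and ifb-2 were lowest at 10 days. By contrast, vha-6 (69.1 CPM at 10 days, 31.7 CPM at 20 days) and ges-1 (15.1 and 6.75 CPM) were lowest at 20 days, and elt-2 at 5 days. The lowest age of nhx-2 was not resolved, with means of 7.67, 7.26 and 8.88 CPM at 5, 10 and 20 days. Neither step between these ages was called for nhx-2 (edgeR adjusted p = 0.53 and 0.091). No step was called for elt-7, so its lowest age was not resolved either. Between 20 and 10 days, 3 markers were higher and 2 lower (28.3% and 28.2% of all genes), while 5 of the 6 proteases were lower. Set against the median of the markers, the change at 20 days against 1 day was -1.59 for cpr-1, -1.62 for cpr-5, -1.43 for cpr-6, 0.17 for cpl-1, 1.31 for cpr-4 and 3.62 for cpr-3, so that cpl-1 and cpr-4 changed sign on this scale. The part of the intestine's share of the RNA in these results was not tested.

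Markers of other tissues moved as well, in a comparison of 20 days with 1 day where 38.5% of all genes tested were called higher and 38.0% lower. In the comparison of 20 days with 1 day, 5 of 5 body wall muscle markers, 4 of 4 pharynx markers and 5 of 5 epidermis markers were called lower, and the epidermis sum was 16.6 to 16.9 CPM at 20 days, against 2007 to 2164 CPM at 1 day, most of it the adult collagen gene col-19. Of 6 markers each, 3 neuron markers were higher and 1 lower, 3 germline markers higher and 2 lower, and 1 oocyte and eggshell marker higher and 2 lower. Of the 4 sperm markers tested 2 were lower and 2 were not called, and of 3 coelomocyte markers 1 was higher and 1 lower. The summed oocyte and eggshell level was 7011 to 7121 CPM at 1 day, 9613 to 9870 CPM at 5 days, 8244 to 8534 CPM at 10 days and 8620 to 8679 CPM at 20 days. Their part in the protease values was not tested.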

How the data were processed

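Libraries were prepared with a TruSeq RNA kit, with total RNA of whole animals as the starting material, and were sequenced as single-end reads. The deposited values are raw counts per gene. The authors mapped the reads with TopHat 1.4.1 to the genome WS220 and counted them with HTSeq (version not given in the sources used here) in union mode, without normalisation or pooling of replicates. Reads that fall on several genes are left out by this mode, and the use of strand is not given in the sources used here. No RPKM values were among the values used, and RPKM here rests on exon lengths from WBcel235. Since this is another build than WS220, coordinates are left out, and chromosomes are those of the counts table. Sequences of the genes were not used here.

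Age groups were taken from the labels. A total of at least 100 counts over the 11 libraries was required, which 14773 of 45461 genes had. The quasi-likelihood test of edgeR 4.0.16 (with limma 3.58.1 in R 4.3.3) was fitted to all ages together, with TMM normalisation and no covariate, and p-values were adjusted after Benjamini and Hochberg and read at 0.01. As a check of the code, the fit was run first on simulated counts in which few genes changed, all at 20 days. That is a simpler case than the present data, so it does not measure the accuracy of the calls here. TMM factors ran from 0.946 to 1.076. The depth of 23648292 to 58499127 counts gave 192 to 91088 counts on each protease in each library. Replicates differed by more than sampling noise (chi-square per degree of freedom 5.05 to 19.9), so each library counted as 1 sample. Profile likeness was Pearson's r of log2 CPM with TMM factors and a prior count of 2. Python 3.11.15 served for the other steps. Alternatives were RLE size factors, the library total, other count minimums, a threshold of 0.05, the replicate number as a block, fits of only the 2 ages compared, DESeq2 1.42.0, and each library left out in turn. The change relative to intestine markers and the comparisons of 10 days with 1 day and of 20 days with 5 days were added after seeing the data.

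The genes and lists were chosen with earlier results of these data known. Apart from the 6 proteases, the text names every gene of a list of up to 4, the 2 largest increases and 2 largest decreases called at 20 days against 1 day in longer lists, and the 3 genes most like each protease. The intestinal regulators elt-2 and elt-7, the marker genes and asp-13 as a protease were named outside this rule, after their values were seen.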

Additional observations from a re-analysis of the deposited data

How the results depend on the processing

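The decrease of cpl-1 at 10 days against 5 days missed the threshold with RLE size factors (log2 change -0.16, adjusted p = 0.0102), with the library total (-0.16, 0.0115), with at least 100 counts in every library (-0.15, 0.021) and with only the 2 ages fitted (-0.17, 0.014), which left 1 protease called lower. It was kept with DESeq2 (-0.16, 0.0039), with the replicate block (-0.16, 0.0037) and without a count filter (-0.16, 7.6e-05). Leaving out single libraries gave -0.21 to -0.12 and 1 to 2 proteases called lower. For cpr-3, the change at 10 days against 5 days passed without a count filter (0.21, adjusted p = 0.0026) and at a threshold of 0.05 (0.21) and ran from 0.06 to 0.27 without single libraries, lowest without replicate 3 of 10 days. The change of cpr-3 at 20 days against 10 days, which was not called, turned to -0.024 with RLE size factors, -0.014 without a filter, -0.020 with DESeq2 and -0.057 to 0.15 without single libraries. The cause was not tested.

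With at least 100 counts in every library, fewer genes were tested by construction, and 3093 and 2964 genes were called higher and lower at 5 days against 1 day, 2405 and 2450 at 20 days against 10 days, 3364 and 3395 at 20 days against 1 day, and 7789 at any age. The share of reads on the 6 proteases at 20 days became 0.0847% with TMM-scaled library sizes. At a monotony threshold of 0.9, cpr-5 (-0.80) was not falling. The median r over the 15 pairs was 0.40, and with Spearman's rho it was 0.19. Relative to the intestine markers, cpr-4 turned to 1.31 and cpl-1 to 0.17. The library total moved the median log2 change of all genes to 0.11 at 20 days against 10 days and to 0.14 at 20 days against 1 day, where 6472 genes were then called higher and 4810 lower.

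Whether replicate numbers pair the libraries was not settled. Over 15 pairs of like number the correlation of deviations ran from -0.12 to 0.23 (median 0.03), with 6 over 0.1. Over 30 pairs of unlike number it ran from -0.30 to 0.27 (median -0.02), with 7 over 0.1. With the number as a replicate block, 5592 genes were called higher and 5471 lower at 20 days against 1 day, and no call of a protease changed. Leaving out 1 library kept 458 values and moved 15, and the other alternatives kept 333 and moved 25. A log2 change was kept when its direction and call were unchanged, and a share of reads when it stayed within the spread. A count of genes was kept when it stayed within a set fold range of the main count, so kept counts could still differ. For example, 5218 genes called higher with the library total at 20 days against 10 days, against 4176, were labelled as kept. The 20-day SDs rest on 2 libraries each, with coefficients of variation from 1.38% for cpl-1 to 29.9% for cpr-1.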
